A study of Mus musculus with 27 samples.

Results

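The voltage-gated sodium, calcium and potassium channel genes were followed across 27 mouse prostate tumours. They were chosen by name, with earlier results of these data known, 42 genes in all. Of these, 41 had a row on the array that carried a single gene symbol, out of 22180 genes measured. The calcium channel beta subunit gene Cacnb3 is not analysed here. Scn2a1 was read from the row named Scn2a, its current symbol. Where a gene had several rows, the row with the highest mean was used, and this applied to 6 of the 41. Levels are log2 values, so a difference of 1 is a doubling. A value under 5.79, the median of the mean levels of all rows on the array, was called dim, which means that it lay in the lower part of what the array measured. Levels of different genes come from different probes and are not compared with each other.

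All 27 tumours form 1 group. They came from transgene-positive F2 males of a cross between C57BL/6-Tg(TRAMP)8247Ng/J and PWK/PhJ, bred from transgene-negative sires and transgene-positive dames, and were examined at 30 weeks, or once a humane endpoint required it. Each tumour gave 1 array, and no normal prostate and no other cross is compared here. TRAMP is a transgene in which the probasin promoter drives viral T antigens in prostate epithelium, and PWK/PhJ is a wild-derived strain, so the F2 animals differ in their genetic makeup. The tumours were frozen whole, so each level averages tumour cells, stroma, vessels and nerves, and fewer cells of a type cannot be told apart from less RNA per cell.

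Voltage-gated channels open when the membrane depolarises. The pore subunits of sodium channels start action potentials, calcium channel pores let in the calcium that triggers vesicle release, and potassium channels bring the membrane back to rest. Auxiliary subunits (beta, alpha-2-delta and gamma) control how much of each pore reaches the membrane and how it opens. In nerve and endocrine cells these channels couple electrical activity to secretion, and neuroendocrine prostate tumours are known to express some of them, whereas smooth muscle carries L-type calcium channels and the BK potassium channel.

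Promoters of 3 members are shown because these genes stand for different patterns in the data: Cacna2d1 had the widest gap between its low and high tumours, Cacna1b was similarly low in the same tumours, and Kcnh6 was raised in other tumours. The sequences are from RefSeq on the GRCm38.p6 build, 250 bases before to 50 bases after the annotated start, 5′ to 3′ on the strand of the gene. The windows are chr5:15934441-15934740 on the plus strand for Cacna2d1, chr2:24763103-24763402 on the minus strand for Cacna1b and chr11:106007898-106008197 on the plus strand for Kcnh6. Capitals mark matches, on either strand, to the E-box CAGCTG, the GC box GGGGCGGGG, TTCAGCACC and GGACAG; the last pair of motifs are the left side and a stretch of the right side of the element bound by REST, a repressor of neuronal genes.
Cacna2d1: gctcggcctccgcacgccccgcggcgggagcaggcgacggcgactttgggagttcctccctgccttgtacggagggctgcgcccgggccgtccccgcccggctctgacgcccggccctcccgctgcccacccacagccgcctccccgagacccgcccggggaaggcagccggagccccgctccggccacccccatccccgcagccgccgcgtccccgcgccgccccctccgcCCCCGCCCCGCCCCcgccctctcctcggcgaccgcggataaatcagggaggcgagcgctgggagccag
Cacna1b: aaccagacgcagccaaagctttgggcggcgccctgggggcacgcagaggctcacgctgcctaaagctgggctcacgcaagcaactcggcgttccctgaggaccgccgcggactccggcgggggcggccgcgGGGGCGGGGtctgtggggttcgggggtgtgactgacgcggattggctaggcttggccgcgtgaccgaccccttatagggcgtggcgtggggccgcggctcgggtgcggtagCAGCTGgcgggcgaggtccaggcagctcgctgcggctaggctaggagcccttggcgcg
Kcnh6: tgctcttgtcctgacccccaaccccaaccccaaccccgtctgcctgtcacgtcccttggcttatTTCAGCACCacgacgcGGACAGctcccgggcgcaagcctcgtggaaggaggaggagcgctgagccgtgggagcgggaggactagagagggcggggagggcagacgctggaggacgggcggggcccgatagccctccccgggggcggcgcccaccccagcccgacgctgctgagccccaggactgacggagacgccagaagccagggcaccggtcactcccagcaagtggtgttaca

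The Cacna2d1 window held 42 CpG dinucleotides against a median of 7 over the 32851 promoter windows of the same length, and its capitals are a pair of GC boxes that overlap. Promoter windows were found for 32 of the members, 45 windows in all. The E-box was in 14 of those 45 windows and in 16.3% of all windows. The GC box was in 8 of the 45 and in 11.4% of all. The 9 letters TTCAGCACC were in 0.371% of all windows and, among the members, in that of Kcnh6 alone. GGACAG was in 5 of the 45 and in 22.2% of all. In the Kcnh6 window GGACAG followed TTCAGCACC on the same strand, with other bases between them. These are matches of letters. Their spacing was not compared with that of the element bound by REST, and no binding was measured.

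Most of the channel genes were above the dim threshold in some tumours and varied widely between tumours. Of the 41, 12 were above the dim threshold in every tumour, 26 were dim in some, and 3 (the sodium beta subunit gene Scn2b and the potassium pore genes Kcna1 and Kcnc2) were dim in all 27. The 12 became 4 with the threshold set at the median of rows with 1 symbol (6.28), and 22 members were dim in none of the 23 tumours of higher neuroendocrine marker levels. Over all genes 28.6% were dim in every tumour and 45% in none, against 7.32% and 29.3% of the members. The range from the lowest to the highest tumour was over 4-fold for 34 of the 41 members (82.9%), against 25.3% of all genes, and over 16-fold for 13 members (31.7%), against 4.62% of all genes. The median SD over tumours was 0.82 for the members, 0.30 for all genes and 0.32 for 53 other voltage-gated channel genes on the array. Only 1 of those 53 ranged over 16-fold, and 19 of them (35.8%) were dim in every tumour. Because members and lists were chosen with earlier results of these data known, these comparisons describe the lists and are not a test.

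**Figure D1:**
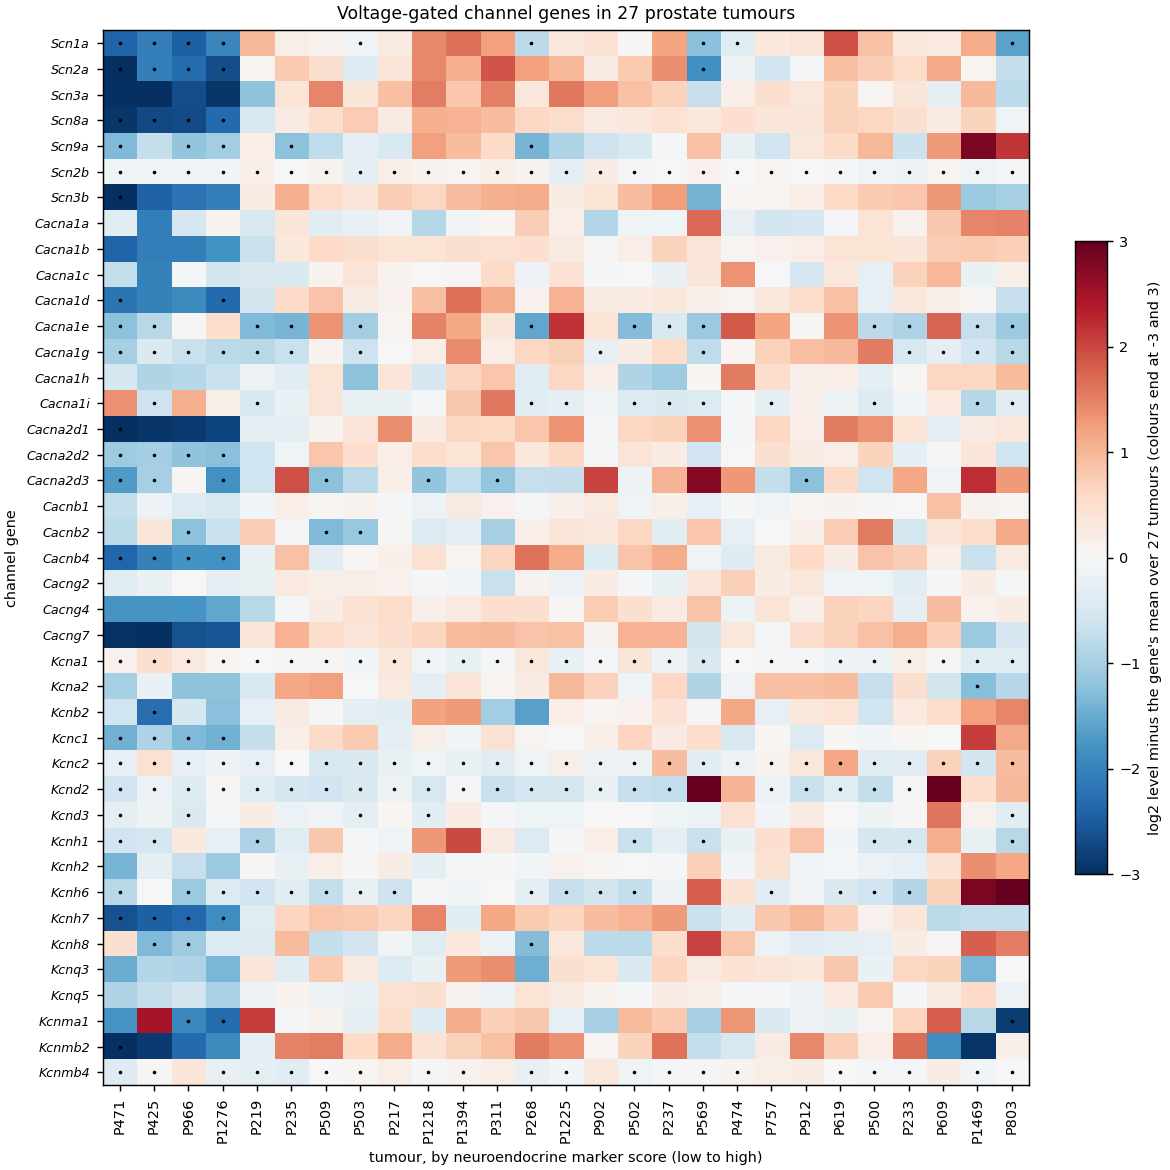
Log2 level of the 41 channel genes in each of 27 tumours, as the difference from the gene's mean, with tumours ordered by their neuroendocrine marker score and a dot where the level was dim. The 4 tumours at the left are low in many genes, and P471 has 23 dim members.

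To place the tumours, a neuroendocrine score was formed from 15 marker genes that include chromogranins, synaptophysin and Insm1 and no channel gene. It is the mean over those genes of the log2 level minus the gene's mean. The score fell into separate clusters: P471 at -2.73, P425 at -1.98, P966 at -1.95 and P1276 at -1.51 lay apart from the other 23 tumours, which ran from -0.17 in P219 to 0.84 in P803. Dim members were counted in each tumour. There were 23 in P471, 19 in P425, 18 in P966 and 18 in P1276, and between 4 (P609) and 11 in the other 23. P471 had the lowest level of all tumours for 14 members. The same counts over all genes are not given here, so these counts are not read as a trait of the channel genes.

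A group of 15 members (36.6%) had their 4 lowest values in exactly those 4 tumours, against 2.84% of all genes. They were the sodium pore genes Scn1a, Scn2a, Scn3a and Scn8a and the sodium beta gene Scn3b, the calcium pore genes Cacna1b and Cacna1d, the alpha-2-delta genes Cacna2d1 and Cacna2d2, the beta gene Cacnb4, the gamma genes Cacng4 and Cacng7, and the potassium pore genes Kcnc1, Kcnh7 and Kcnq5. No member had its 4 highest values there (1.6% of all genes did). The pattern was chosen after the values were seen, so it is given without a test. The luminal epithelium marker score was 2.10 to 2.73 in the 4 tumours. It was 2.01 to 2.17 in P219, P803, P1469 and P569 as well, and at most 0.61 in the other 19. P471 also had the highest fibroblast (1.52), macrophage (1.37) and endothelium (0.86) scores of all tumours. In P966, P1276 and P425 the fibroblast score was 1.29, 0.997 and 0.30, the macrophage score 0.98, 0.31 and 0.04, and the endothelium score 0.44, 0.80 and -0.05. The part of these cell types in the low channel levels was not tested.

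Among the sodium channel genes, Scn3a, which encodes the pore NaV1.3 of developing neurons, had a lowest level of 6.31 in P471, a median of 9.83 and a highest level of 11.05 in P1225. It was never dim. The 4 tumours low in neuroendocrine markers lay between 6.31 and 6.81 and the next, P219, at 8.25, so that they did not overlap with the rest. Scn2a, the pore NaV1.2, ran from 3.89 in P471 through a median of 7.69 to 9.21 in P311. The gap for this gene was small, with the 4 tumours up to 5.27 and P569 next at 5.47. Scn8a, the pore NaV1.6 that sits at the axon initial segment, had a lowest level of 4.99, a median of 8.28 and a highest of 8.97. Its 4 low tumours lay between 4.99 and 5.57, all dim, and the next tumour was at 7.45. Scn1a, the pore NaV1.1 of inhibitory neurons, ran from 3.35 in P966 to 7.71 in P619 with a median of 6.07. It was dim in 9 tumours, among them the 4, and P803 followed at 4.18.

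Scn3b, a beta subunit, ranged from 5.50 in P471 to 9.96 in P609 with a median of 9.07. Its levels fell into clusters: 7 tumours lay apart at the low end, the 4 named above together with P569, P803 and P1469. Scn9a, the pore NaV1.7 of peripheral neurons, showed another order, with a lowest level of 5.40 in P268, a median of 6.51 and its highest levels in P1469 (9.62) and P803 (8.95). The 4 tumours lay within the range of the others for this gene, from 5.46 to 6.08. Scn2b, the other beta subunit gene, stayed between 3.67 and 4.18.

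**Figure D2:**
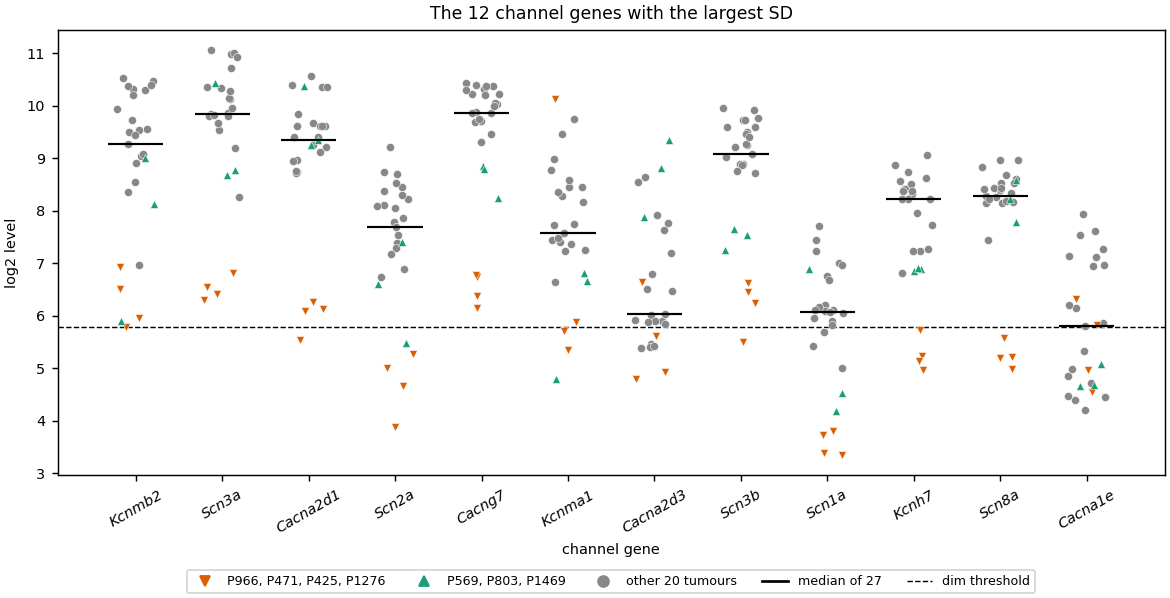
Log2 level of the 12 channel genes with the largest SD, 1 point per tumour, with the median of 27 as a bar and the dim threshold as a dashed line. P966, P471, P425 and P1276 lie below all other tumours for Scn3a, Cacna2d1, Scn2a, Cacng7, Scn3b, Scn1a, Kcnh7 and Scn8a, but not for Kcnma1, Cacna2d3 or Cacna1e.

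Among the calcium channel pores, Cacna1b encodes the N-type channel of presynaptic terminals. Its lowest level was 5.87 in P471, its median 8.65 and its highest 9.06 in P1469. The 4 tumours lay between 5.87 and 6.47 and the other 23 between 7.61 and 9.06. Cacna1d, an L-type pore of endocrine cells, ran from 5.56 in P1276 to 9.54 in P1394, with the 4 tumours up to 5.99 and the next at 7.21. Cacna1c, the L-type pore of muscle, was dim in no tumour. Its level of 6.68 in P425 lay 1.32 below the next lowest, and the highest was 10.07 in P474. Cacna1a, the P/Q-type pore, was also lowest in P425 (6.09) and was highest in P569 (9.86), P803 (9.66) and P1469 (9.62), with P609 next at 8.97.

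Cacna1e, the R-type pore, was dim in 13 tumours and ran from 4.21 in P268 through a median of 5.80 to 7.93 in P1225. P1276 (6.31) and P966 (5.82) lay above the median and P471 (4.55) below it, so the 4 tumours were spread over the range. The T-type pores open at low voltages. Cacna1g (4.93 to 7.49) and Cacna1i (5.14 to 7.59) were dim in 13 and 11 tumours, and Cacna1h (6.00 to 8.78) in none. For Cacna1i, only P311 (7.59) was above P471 (7.38), and P966 (7.08) followed.

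The alpha-2-delta subunits bring calcium channels to the membrane. Cacna2d1, the target of gabapentin, had a lowest level of 5.54 in P471, a median of 9.34 and a highest of 10.57 in P619. Its 4 low tumours ended at 6.26 and the next value was 8.72, a gap of 2.46. Cacna2d2 ran from 5.36 to 7.46, with the 4 tumours up to 5.59 and P803 next at 6.02. Cacna2d3 ran from 4.79 in P1276 through a median of 6.02 to 9.35 in P569, with P1469 second at 8.82, and P966 (6.64) lay above the median.

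Of the calcium beta subunits, Cacnb4 ran from 4.93 to 8.93, was dim in the 4 tumours alone and was next lowest in P1469 (6.63). Cacnb1 (6.87 to 8.45) was highest in P609, 0.61 above the next tumour, and Cacnb2 (5.53 to 8.41) was lowest in P509. The gamma genes include TARPs, which are better known as partners of glutamate receptors. Cacng7 had a lowest level of 6.15 in P425, a median of 9.86 and a highest of 10.43 in P233, with the 4 tumours up to 6.78 and the next, P1469, at 8.24. Cacng4 lay between 7.12 and 7.35 in the 4 tumours and between 8.07 and 9.83 in the rest, and Cacng2 between 5.90 and 7.28 in all.

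Among the potassium pores, Kcnh7, of the ERG family that limits firing, ran from 4.97 in P471 through a median of 8.22 to 9.05 in P1218. The 4 tumours lay between 4.97 and 5.72, all dim, and P609 was next at 6.80. Its relative Kcnh6 showed another order. It had a lowest level of 4.89, a median of 5.67 and was dim in 16 tumours, but reached 10.001 in P803, 8.82 in P1469 and 7.79 in P569. P609 followed at 6.68, so those 3 tumours stood apart at the high end.

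The same 3 tumours held the highest levels of 4 members (9.76%), Cacna1a, Kcnh2, Kcnh6 and Kcnh8, against 1.42% of all genes. This pattern too was chosen after the values were seen. Kcnh2, the ERG pore that repolarises the heart, reached 8.69 and Kcnh8, of the ELK family, 8.70, with the fourth highest tumour at 7.73 and 7.62. Kcnh1, the EAG pore, ran from 5.34 to 8.24 and was highest in P1394.

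Of the Kv1 to Kv4 pores, Kcnd2, a carrier of the fast A-type current, was dim in 22 tumours. It reached 8.81 in P569 and 8.72 in P609, and the next tumour lay 2.20 lower at 6.53. Kcnd3 was highest in P609 as well, at 7.58 against 6.43 in the next. Kcnb2, a delayed rectifier pore, was lowest in P425 (5.20) and highest in P803 (8.95). Kcnc1, a fast Kv3 pore, ran from 5.20 to 8.71 and was highest in P1469. Kcna2 ran from 5.77 to 8.27. Kcna1 stayed between 4.33 and 5.24 and Kcnc2 between 3.07 and 4.76. The pores of the M current, which damps repeated firing, ran from 5.88 to 8.77 for Kcnq3 and from 5.91 to 7.65 for Kcnq5.

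The BK channel is opened by calcium and voltage together. Its pore gene Kcnma1 had a lowest level of 4.80 in P803, a median of 7.58 and its highest levels in P425 (10.13) and P219 (9.75). The 4 tumours were split, since P1276 (5.35), P966 (5.71) and P471 (5.87) were next after P803 at the low end. P425 and P219 also had the highest smooth muscle marker scores, 1.85 and 2.06, with the other 25 tumours between -0.86 and 0.62. The part of smooth muscle in the Kcnma1 level of these tumours was not tested. Kcnmb2, a beta subunit that inactivates the BK channel, had the largest SD of all members (1.52). It ran from 5.78 in P471 through a median of 9.28 to 10.52 in P233, and P1469 (5.89) was second lowest. Kcnmb4, a neuronal BK beta subunit, stayed between 5.28 and 6.03.

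The choice of probe set mattered for 2 genes. For Kcnma1 the row that was not used ran from 5.04 to 12.64 and was dim in 18 tumours, with 12.64 in P569, 12.46 in P619 and 9.48 in P1469, while the row that was used gave 6.66, 7.44 and 6.82 in those tumours. For Cacng2 the row that was not used had an SD of 1.15 (4.84 to 8.37), and the row that was used had an SD of 0.28. Of the other rows not used, those of Cacnb2, Cacnb4 and Kcnmb4 were dim in 26, 22 and 24 tumours and that of Kcnq5 in 27.

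**Figure D3:**
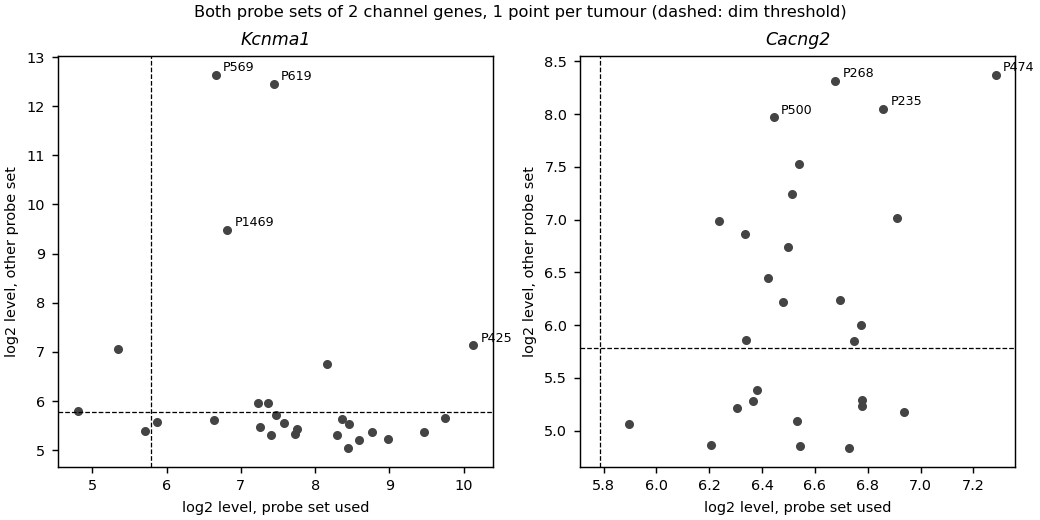
Log2 levels from both probe sets of Kcnma1 and of Cacng2, 1 point per tumour, with the dim threshold dashed and the 4 highest tumours of the other probe set named. For Kcnma1, P569 and P619 lie above 12 on the other probe set and under 7.5 on the one used.

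Members were next set against the neuroendocrine score within the 23 tumours of its larger cluster, because a score in clusters gives no pooled slope. Slopes are log2 per SD of the score, from a limma fit of all genes, and a gene was called when its Benjamini-Hochberg adjusted p over all genes was under 0.05. None of the 41 members passed, against 2 of 22165 genes tested (0.00902%). At an unadjusted p under 0.05 there were 13 members, 9 with a positive and 4 with a negative slope, and 2573 genes. The largest positive slope was that of Kcnh6, 0.69 ± 0.20 (SE, n = 23 tumours, adjusted p = 0.21, limma). Scn9a had a slope of 0.61 ± 0.18, Cacna1a of 0.39 ± 0.12 and Cacna1b of 0.17 ± 0.06. With Kcnh6 these had the lowest adjusted p of the 41 members, at least 0.21 in limma. The levels of Kcnh6 lay in clusters within the 23 tumours, so its slope is not read as a trend. The median slope was 0.05 for the members and 0.01 for all genes, and none of the 53 other channel genes passed.

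The mitosis score was formed from 14 cell division genes such as Bub1, Plk1 and Mki67. It was not called in clusters, but P425 stood alone at -1.78 and the other 26 tumours lay between -0.36 and 0.50. In the fit over all 27 tumours, 15 of the 41 members rose with the score, against 11.9% of all genes, and 0 fell, against 12.5%. At an unadjusted p under 0.05, 17 members rose and 0 fell, against 3672 and 4295 of 22166 genes. The median slope was 0.23 for the members and -0.02 for all genes. The 15 comprised 4 sodium channel genes, 8 calcium channel genes and 3 potassium channel genes. The levels of 10 of the 15 fell into clusters over the 27 tumours, among them Scn3a, Scn8a, Cacna1b and Cacna2d1, where the 4 tumours lay apart, so these slopes include the distance between those 4 and the rest.

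The steepest was Kcnmb2, with a slope of 0.88 ± 0.24 (SE, n = 27 tumours, adjusted p = 0.0069 by limma). Scn3a rose by 0.86 ± 0.22 per SD (adjusted p = 0.0045), Cacng7 by 0.85 ± 0.19 (adjusted p = 0.0017) and Cacna2d1 by 0.80 ± 0.21 (adjusted p = 0.0068). Kcnh7 rose by 0.73 ± 0.18 (adjusted p = 0.0035) and Scn3b by 0.71 ± 0.20 (adjusted p = 0.0094). Of these 6 genes all but Kcnh7 had levels in clusters over the 27 tumours, so the slopes of the rest are not read as trends. The other 9 were Scn8a, Scn2a, Cacnb4, Cacna1d, Cacna1b, Cacng4, Cacna1c, Cacna2d2 and Kcnq5, with slopes from 0.69 down to 0.22. Scn1a did not pass, with a slope of 0.55 ± 0.21 (adjusted p = 0.056).

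Of the 15 calls, 11 were lost without P425. Then 5 members rose, against 5.96% of all genes: 4 of the 15 (Cacng7, Kcnh7, Kcnmb2 and Cacna2d2) and Cacna1g, the T-type pore gene, with 0.45 ± 0.11 (SE, adjusted p = 0.013, limma). No member fell, against 5.74% of all genes. All 11 kept a positive slope, and they lost different amounts of it. Cacna1c went from 0.39 to 0.09 and Cacna1b from 0.49 to 0.27, whereas Scn3a went from 0.86 to 0.66 (adjusted p = 0.051), Scn2a from 0.66 to 0.59 (adjusted p = 0.09) and Cacnb4 from 0.59 to 0.47 (adjusted p = 0.052). Leaving out any other single tumour gave between 14 and 17 rising members and between 2408 and 2877 rising genes. In the 23 tumours of higher neuroendocrine score alone, 3 members rose, Cacng7, Kcnh7 and Cacna1g, against 3.99% of all genes. There 2 members fell, Kcnh6 and Kcnh2, against 3.23% of all genes. In both, and in Kcnh7, levels lay in clusters within the 23, so their slopes are not read as trends. P803, P1469 and P569, which stood apart at the high end of Kcnh6 and Kcnh2, had mitosis scores of -0.33, -0.25 and 0.01.

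Other gene lists moved in the same fit over 27 tumours. Of the neuroendocrine markers 7 of 15 rose. Of the luminal epithelium markers 10 of 12 fell, of the smooth muscle markers 7 of 10 and of the prostate secretory genes 4 of 5. P425 had the highest prostate secretory score, 5.13, followed by P219 at 3.32, and at most 1.39 in the other 25. The part of these cell types in the slopes of the channel genes was not tested. Among the 53 other voltage-gated channel genes 8 rose and 5 fell. The steepest rising were Nalcn, a sodium leak channel (0.65), Kcnip1 (0.64) and Dpp6 (0.57), which are auxiliary subunits of Kv4 channels, and Kcna3 (0.53). The steepest falling were Kcnq1 (-0.49), Kcng1 (-0.23), Kcnmb1 (-0.22), the BK beta subunit of smooth muscle, and Kcne1 (-0.14).

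**Figure D4:**
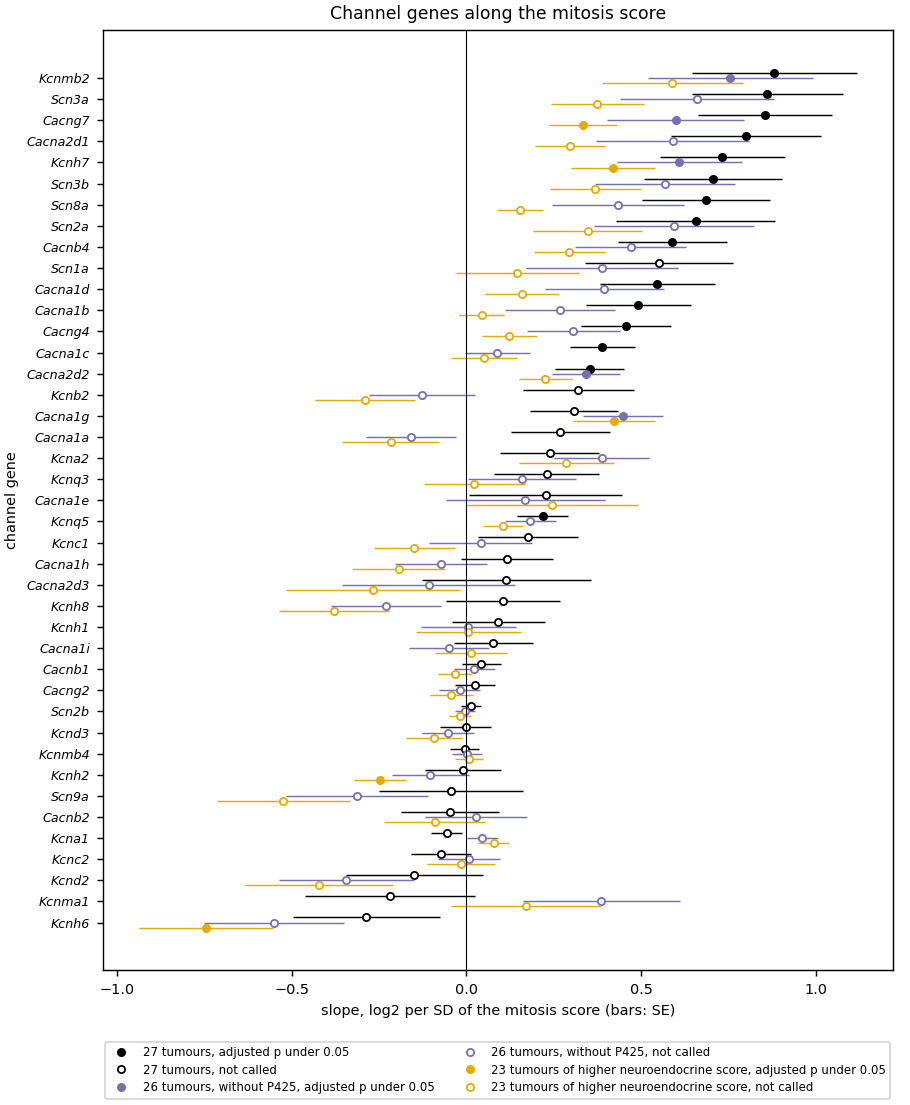
Slope of each channel gene on the mitosis score, in log2 per SD with SE bars, over 27 tumours (black), 26 without P425 (purple) and the 23 of higher neuroendocrine score (yellow), with filled points for an adjusted p under 0.05. Of the 15 genes that rose over 27 tumours, 4 also rose without P425.

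Smooth muscle markers, 10 genes such as Myh11 and Cnn1, gave the remaining score. Over 27 tumours 3 of the 41 members fell with it, against 5.31% of all genes, and 0 rose, against 7.19%. At an unadjusted p under 0.05, 15 members fell and 0 rose, against 3011 and 2872 of 22170 genes. Scn3a fell by 0.77 ± 0.23 per SD (SE, adjusted p = 0.025, limma), Kcnb2 by 0.50 ± 0.14 (adjusted p = 0.020) and Cacna1c by 0.34 ± 0.10 (adjusted p = 0.027). The levels of Scn3a lay in clusters over the 27 tumours, so its slope is not read as a trend. The median slope was -0.27 for the members and -0.01 for all genes. Cacna1c and Kcnma1 are the members best known from smooth muscle. Kcnma1 had a slope of 0.44 ± 0.23 (adjusted p = 0.22), which became -0.20 ± 0.23 without P425 and P219.

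None of the 3 passed without P425, when their adjusted p values were between 0.27 and 0.51 in limma. The count was 8 without P966 or without P219, where 1430 and 1138 of 22170 genes fell. It was 7 without P471 or without P803 (1336 and 1398 genes), and 5 without P235 or without P757 (1258 and 1284 genes). Over all 27 tumours 1177 genes fell. With the neuroendocrine score as a covariate 1 member fell, against 392 genes. None of the 3 passed, and Scn3a had a slope of -0.36 (adjusted p = 0.22, limma). With the skeletal muscle score as a covariate 15 members fell, against 7.85% of all genes, and P219 had the highest skeletal muscle score, 2.93. In the 23 tumours of higher neuroendocrine score, Scn3a fell by 0.44 ± 0.13 (adjusted p = 0.043) and Cacna1b by 0.20 ± 0.05 (adjusted p = 0.016), against 0.55% of all genes, and 0 rose, against 4.29%. Without P219, which had the highest smooth muscle score, 0 members fell in those tumours and the slope of Scn3a was -0.23 (adjusted p = 0.745). Over 27 tumours 13 of 14 mitosis genes fell with the smooth muscle score. In the same fit 5 of 5 prostate secretory genes, 7 of 8 skeletal muscle markers and 4 of 12 luminal epithelium markers rose. Apart from the fit with the skeletal muscle score as a covariate, their part in the slopes of the channel genes was not tested. Of the other 53 channel genes 4 rose, Kcnmb1 (0.28), Kcng1 (0.25), Kcng4 (0.14) and Kcnab1 (0.12), and 3 fell, the pacemaker channel genes Hcn3 (-0.36) and Hcn2 (-0.31) and the TARP gene Cacng8 (-0.31).

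Markers of nerve were examined because nerve also expresses these channels. Of 8 autonomic neuron genes measured, Chat was dim in all 27 tumours, Hand2 in 26 and Dbh in 24. The other 5 were above the threshold in most tumours: Nefm was dim in 10, Th in 6, Nefl in 5, Prph in 1 and Ret in none. The list score lay between -1.23 and -0.75 in the 4 tumours low in neuroendocrine markers and between -0.60 and 0.51 in the other 23. Nefl and Ret had their lowest level in P471 and Nefm and Dbh in P1276. The remaining genes were lowest outside those tumours, Prph in P803, Th in P1469, Hand2 in P1394 and Chat in P268. Of 6 Schwann cell genes, Cdh19 was dim in all 27 tumours, S100b in 26, Mal in 14 and Sox10 in 6, and Mbp and Pmp22 in none. Their list score was 0.01 to 0.78 in the 4 tumours and -0.31 to 0.32 in the other 23. The part of nerve in the channel levels was not tested.

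Pairs of members were compared within the 23 tumours, over 36 members, leaving out Scn3b, Kcnc2, Kcnh2, Kcnh6 and Kcnh7, whose levels fell into clusters there. Of 630 pairs, 22 (3.49%) had a Benjamini-Hochberg adjusted permutation p under 0.05 for Pearson's r, 17 positive and 5 negative, and 10 of them passed for Spearman's rho as well. The median r over all pairs was 0.07. Without P219, P569, P803 and P1469, the tumours of the 23 with a luminal epithelium score over 2, 1 pair passed in the other 19. All 22 kept their sign, but they were picked in tumours that include these 19, so this is no independent check.

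The highest r was that of Scn3a with Cacna2d2, 0.78 (permutation p = 2e-05, adjusted p = 0.0099), with rho 0.61 (permutation p = 0.0026, adjusted p = 0.088) and r 0.65 without P219 and P803. Kcna2 with Kcnmb2 gave r 0.74 (permutation p = 4e-05, adjusted 0.0099) and rho 0.72 (permutation p = 0.00023, adjusted 0.018). Their r was 0.63 without P1469 and P569. Scn2a with Cacng7 gave r 0.74 (permutation p = 0.0001, adjusted 0.0099) and rho 0.75 (permutation p = 8e-05, adjusted 0.018), with r 0.68 without P569 and P311. Scn8a with Cacna1d gave r 0.73 (permutation p = 0.00016, adjusted 0.013), rho 0.49 (permutation p = 0.019, adjusted 0.19) and r 0.57 without P219 and P803. Cacnb1 with Kcnd3 had r 0.72 (permutation p = 0.018, adjusted 0.15) and rho 0.13 (permutation p = 0.54, adjusted 0.83). It did not pass. Its r was -0.02 without P609 and P569, but 0.77 in the 19 tumours, which include P609 and not P569. P609 had the highest level of both genes.

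Scn9a stood on the negative side. Its r was -0.74 with Kcna2 (permutation p = 8e-05, adjusted 0.0099; rho -0.70, permutation p = 0.00023, adjusted 0.018), and -0.60 without P1469 and P803. With Kcnmb2 its r was -0.70 (permutation p = 0.00029, adjusted 0.018; rho -0.63, permutation p = 0.0016, adjusted 0.072), and -0.57 without those tumours. With Kcna1, which was dim throughout, r was -0.65 (permutation p = 0.00074, adjusted 0.029; rho -0.60, permutation p = 0.0031, adjusted 0.093), and -0.52 without them. Kcna1 with Kcnh8 gave r -0.68 (permutation p = 0.00046, adjusted 0.022), rho -0.48 (permutation p = 0.023, adjusted 0.21) and r -0.57 without P502 and P569. Kcnd2 with Kcnmb2 gave r -0.64 (permutation p = 0.0046, adjusted 0.098), rho -0.60 (permutation p = 0.0034, adjusted 0.095) and r -0.58 without P569 and P609, and did not pass. In the 19 tumours its r was -0.81. The pairs named before it had -0.56, -0.53, -0.46 and -0.37 there, in the order given.

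**Figure D5:**
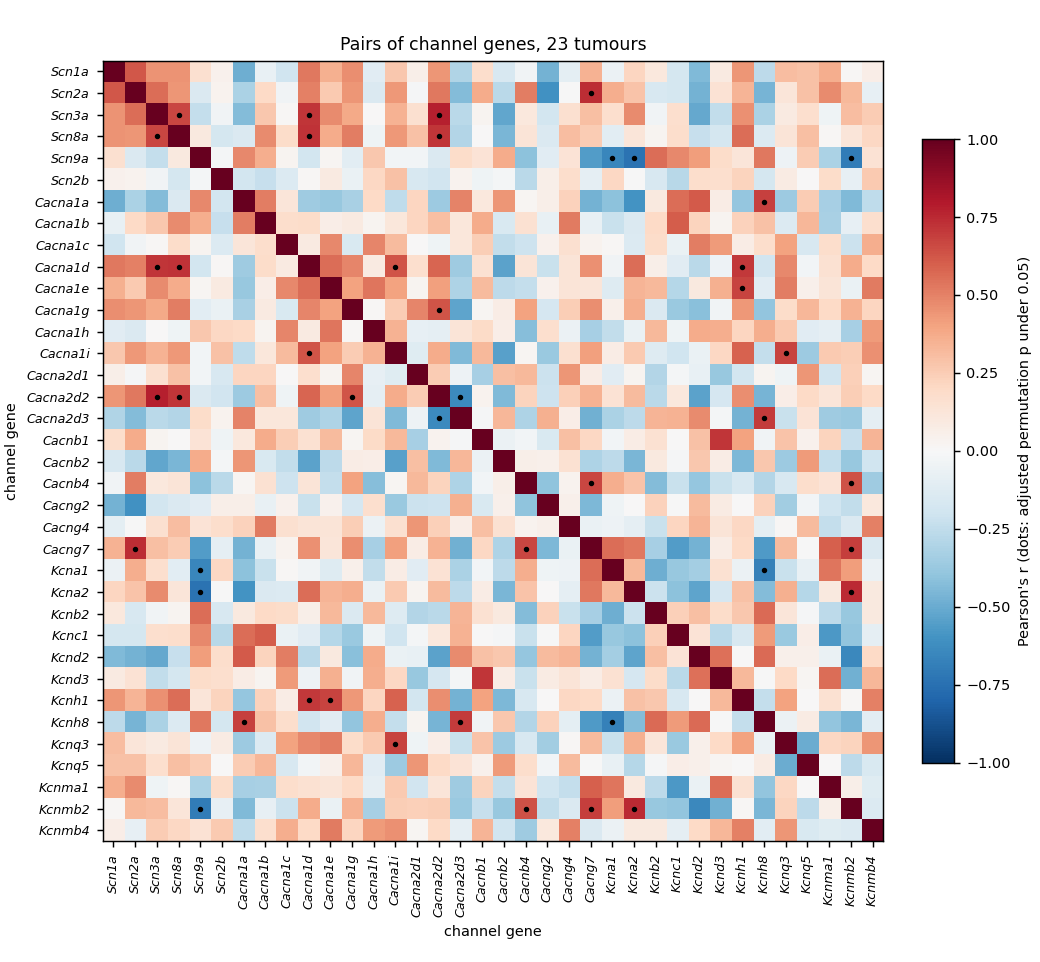
Pearson's r of each pair of 36 channel genes over 23 tumours, with a dot where the adjusted permutation p was under 0.05. The 22 marked pairs are 17 positive and 5 negative, and 3 of the negative ones involve Scn9a.

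The sodium pore genes Scn3a, Scn2a, Scn1a and Scn9a lie close together on mouse chromosome 2, and their neighbours did not pass. Scn3a and Scn2a, with 0 protein-coding genes between them in RefSeq, had r 0.56 (permutation p = 0.0058, adjusted 0.098) and rho 0.47 (permutation p = 0.024, adjusted 0.22), with r 0.39 without P569 and P311. Scn2a and Scn1a, with 3 between, had r 0.62 (permutation p = 0.0019, adjusted 0.051) and rho 0.49 (permutation p = 0.018, adjusted 0.18), with r 0.58 without P803 and P619. Scn1a and Scn9a, with 0 between, had r 0.16 (permutation p = 0.46, adjusted 0.71) and rho 0.34 (permutation p = 0.11, adjusted 0.46). Their r was 0.46 without P803 and P619. In the 19 tumours r was 0.69 for Scn1a with Scn9a, 0.33 for Scn3a with Scn2a and 0.46 for Scn2a with Scn1a.

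The 3 preset pairs of a pore and its auxiliary subunit did not pass either. Of all 72 pairs of a calcium pore gene with a beta, alpha-2-delta or gamma gene, 1 passed, Cacna1g with Cacna2d2 (r 0.63, permutation adjusted p = 0.039). The BK pore gene Kcnma1 had r 0.06 with Kcnmb2 (permutation p = 0.79, adjusted 0.92; rho 0.20, permutation p = 0.36, adjusted 0.72), and 0.11 without P803 and P219. With Kcnmb4 it had r -0.12 (permutation p = 0.58, adjusted 0.80; rho -0.10, permutation p = 0.66, adjusted 0.89), and 0.05 without them. The L-type pore gene Cacna1c had r -0.25 with the beta subunit gene Cacnb2 (permutation p = 0.26, adjusted 0.55; rho -0.22, permutation p = 0.31, adjusted 0.67), and -0.32 without P474 and P609. Scn2b with Scn3b gave no value, since Scn3b lay in clusters. Of the 3 pairs of alpha-2-delta genes 1 passed: Cacna2d2 and Cacna2d3 had r -0.64 (permutation adjusted p = 0.034) and rho -0.71 (permutation adjusted p = 0.018), and r was -0.79 without P803 and P219. This pair was chosen after its values were seen.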

How the data were processed

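The authors deposited log2 levels, a table of 41345 rows and 27 arrays with values from 1.68 to 14.5. It was made with Partek, per the submitters' processing notes; its version, background correction and normalization method were not given in the sources used here. Array medians ran from 5.67 to 5.82, so the values were used unchanged, and a shift removed by that normalization would be invisible. The number of arrays limits the precision. Probe annotation named 23521 rows with 1 symbol (1814 several, 16010 none).

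The 27 tumours are 1 group. Their numbers in the labels were read as animals, and p-values measure the spread between these samples. Scores are means of centred log2 values; clusters were called with mclust 6.1.1. Slopes came from limma 3.58.1 (lmFit, eBayes with trend, two-sided, Benjamini-Hochberg over all genes, threshold 0.05) in R 4.3.3, with the genes of the score left out. Pairs used 100000 permutations, two-sided, in Python 3.11.15. Both scripts were tested on simulated data.

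The members and lists were chosen with earlier results of these data known. Values are named for the 12 members of largest SD, members past a threshold (full statistics for the 6 steepest), the 5 highest and 5 lowest pairs, 8 preset pairs, of which Cacna1b with Cacnb3 is not analysed here, and the 4 steepest other channel genes per direction. Other members are given by range. Alternatives were quantile normalization, centred medians, dim genes left out, mean of rows, scaled scores, covariates and tumours left out. Leaving out P425 alone, P803 with P219, P219 from the 23, and 4 tumours from the pairs were chosen after seeing the data, as was counting dim members in the 23.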

Additional observations from a re-analysis of the deposited data

How the results depend on the processing

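Leaving out single tumours, the members that rose with mitosis numbered 5 to 17 and those that fell 0 to 0, with 2592 to 5824 genes called; with the smooth muscle score 0 to 8 members fell and 0 to 0 rose, with 674 to 3227 genes called; with the neuroendocrine score 0 to 0 members were called in either direction, with 0 to 9 genes. For mitosis the 23 tumours gave 3 rising and 2 falling members (1599 genes called, against 5425 over 27), 27 without P425 and P219 gave 8 and 1 (3270 genes), 27 without P425 gave 5 rising (2592 genes), and the 23 without P219 gave 2 and 4 (2190 genes), where the slopes of Cacna1b and Cacna1c turned to -0.066 and -0.0073. For smooth muscle the falling members were 5 after quantile normalization, 7 with medians centred and 8 of 34 with dim genes left out. They were 6 with scaled scores, 10 with animal number and 15 with skeletal muscle as a covariate. In that order 1191, 1553, 1405, 1239, 1619 and 1740 genes fell, against 1177 in the main fit. With the neuroendocrine score as a covariate the falling members were 1, none of the 3, and 392 genes fell (1270 called, against 2772). They were 0 without P425 and P219 (16 genes called) and 0 in the 23 without P219 (7 genes called). The 23 gave 1072 genes. The genes called with the neuroendocrine score, 2 in all, became 7 by quantile normalization, 8 with medians centred, 14 with scaled scores, and 0 with the mean of rows, with stromal covariates and without P803 and P219; 0 members passed in any of these. Centring the medians moved the rising share of genes called from 50 to 87.5% (neuroendocrine), 48.8 to 49.9% (mitosis) and 57.5 to 49% (smooth muscle); quantile normalization gave 71.4, 43.5 and 58.6%. Pairs called were 12 by Spearman and 1 without the 4 tumours named in the report. Members dim in no tumour were 4 with the threshold taken from rows with 1 symbol and 22 in the 23 tumours, with no share over all genes given. Of the named slopes under alternatives, 125 kept their call, 56 kept their direction but not the call and 2 reversed. Some of these alternatives used fewer tumours or genes, and the cause of the changes was not tested. No paired analysis was possible because there is 1 group. Background was not measured, so whether dim levels, as of Scn2b, Kcna1, Kcnc2 and Kcnd2, are above it is not known.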
